A study of Mus musculus with 11 samples.

Results

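The miR-15/16 family, with miR-195 and miR-497, is a group of microRNAs (miRNAs) that carry one common seed, bases 2 to 8 of the mature strand, which pairs with target mRNAs. Its 6 members, mmu-miR-15a-5p, mmu-miR-15b-5p, mmu-miR-16-5p, mmu-miR-195a-5p, mmu-miR-497a-5p and mmu-miR-322-5p, were chosen by name from the 1907 mature miRNA names listed for each library. The choice was made with earlier values of the pMCAO against sham contrast in these libraries known, so the fold changes and adjusted p-values of the members describe them and are not independent support. Small RNA was sequenced from the brains of 11 male Balb/cOlaHsd mice, aged 3 months by their labels, 3 days after surgery. In 5 mice the middle cerebral artery was closed for good by thermocoagulation (pMCAO, a stroke model without reperfusion), and the tissue is labelled peri-ischemic cortex, that is, cortex bordering on the infarct. In the 6 sham mice the artery was exposed and lifted but not closed, and the tissue is labelled cortex, whereas the methods name peri-ischemic tissue for both groups. The labels name no transgene or agent in either group, though the names of the deposited tables call both groups vehicle. Libraries are named here by group and number, such as pMCAO 3.

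All 6 members had counts in every library and passed the filter on low counts, which kept 479 miRNAs. The sham libraries held between 1429037 and 2319810 counts and the pMCAO libraries between 744877 and 1411620, so every sham library was deeper. Levels are given in CPM, the counts of a miRNA scaled to a common library size by TMM, a normalisation that aligns the bulk of the miRNAs between libraries. A single count corresponded to between 0.499 and 1.18 CPM. The neuronal miRNAs fixed as markers summed to between 299194 and 379030 CPM in sham and between 254203 and 300581 CPM in pMCAO, so these markers of neurons were present in every library. Sham 1 stood apart from the other sham libraries in red blood cell miRNAs, 5375 CPM against 49.2 to 272 CPM, and the called members are given with and without it below. In RNA from whole tissue, fewer cells of a type and less RNA per cell cannot be told apart.

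miRNAs guide the silencing complex to mRNAs that carry a match to the seed, so members of one family share many of their target sites. The miR-15/16 family is known for holding back the cell cycle and for lowering the anti-apoptotic protein BCL2. Its members are made from hairpins at several loci, and miR-195 rises after birth in the heart, where it is tied to the cell-cycle exit of muscle cells. miR-322, the mouse counterpart of human miR-424, is made with miR-503 from the X chromosome and is known from muscle differentiation and blood vessels.

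The mature sequences, taken from RefSeq, are shown to make the shared seed and the differences outside it visible. They are written 5′ to 3′ with the seed in capitals.
mmu-miR-15a-5p: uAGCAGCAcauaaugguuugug
mmu-miR-15b-5p: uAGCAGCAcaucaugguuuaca
mmu-miR-16-5p: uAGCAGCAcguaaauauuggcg
mmu-miR-195a-5p: uAGCAGCAcagaaauauuggc
mmu-miR-497a-5p: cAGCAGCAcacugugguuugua
mmu-miR-322-5p: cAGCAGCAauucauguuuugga

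The seed was identical in all 6, and 4 members began with U and 2 with C. The closest pair was miR-16-5p and miR-195a-5p, with 2 differences over their 21 shared positions, G10A and U11G (miR-16-5p first, positions counted from 1 at the 5′ end). miR-15a-5p and miR-15b-5p differed by A12C, G20A, U21C and G22A. miR-497a-5p differed from miR-15a-5p at 5 positions, and miR-322-5p differed from miR-16-5p at 10. The sources used here do not state how reads that match more than one hairpin were assigned, so near-identical members could share reads, miR-16-5p and miR-195a-5p first among them. One read covers a whole mature miRNA, and the members are 21 or 22 bases long, so their levels were compared without division by length.

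Among the 1623 names with a RefSeq sequence, 4 others carried the same bases at positions 2 to 8. miR-6342, miR-6353 and miR-6419 were at 0 counts in every library, where 3 counts would have been at most 3.55 CPM. miR-195b had between 0 and 5 counts. The names miR-195a and miR-497a without an arm are not in the tables used here, and miR-497b, made from the strand opposite the miR-497 hairpin, had at most 1 count. miR-103-3p and miR-107-3p, which regulate energy metabolism and share these 7 bases from position 1, and miR-503-5p, whose match ends 1 base earlier, are shown as relatives for comparison.
mmu-miR-103-3p: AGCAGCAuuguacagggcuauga
mmu-miR-107-3p: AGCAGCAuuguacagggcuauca
mmu-miR-503-5p: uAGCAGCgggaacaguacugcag

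The hairpins lie at 4 loci of the mouse genome (GRCm38, GENCODE annotation). On chromosome 14, Mir15a (chr14:61632027-61632110, minus strand) is in an intron and Mir16-1 (chr14:61631880-61631972) in an exon of the non-coding RNA Dleu2, with 54 bases between them. On chromosome 3, Mir15b (chr3:69009772-69009835, plus strand) and Mir16-2 (chr3:69009902-69009996) are both in an intron of Smc4, a condensin subunit gene, 66 bases apart. Mir497 (chr11:70234717-70234800, plus strand) and Mir195a (chr11:70235042-70235135) are 241 bases apart on chromosome 11. Mir322 (chrX:53054255-53054349, minus strand) is followed by Mir503 after 200 bases on the X chromosome. The mature miR-16-5p comes from both Mir16-1 and Mir16-2, so its counts cannot be divided between the loci.

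In the sham cortex the family summed to 11375 ± 1126 CPM (SD, n = 6), or 1.08 ± 0.118% of all miRNA counts. miR-16-5p made up 64.9 ± 1.74% of the family's counts, miR-195a-5p 17.7 ± 0.532% and miR-15a-5p 12.5 ± 0.944%. miR-497a-5p held 2.88 ± 0.948%, miR-322-5p 1.52 ± 0.189% and miR-15b-5p 0.527 ± 0.644%. miR-16-5p stood above every other member in each of the 11 libraries. miR-195a-5p was above miR-15a-5p in 6 of 6 sham libraries, whereas in pMCAO it was above it in 4 of 5 and their CPM ranges overlapped. The lower ranks were less fixed: the sham ranges of miR-497a-5p, miR-322-5p and miR-15b-5p overlapped, and miR-497a-5p was above miR-322-5p in 6 of 6 sham and 4 of 5 pMCAO libraries. miR-15b-5p was above miR-322-5p in 1 sham library and in 0 of 5 pMCAO libraries.

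**Figure D1:**
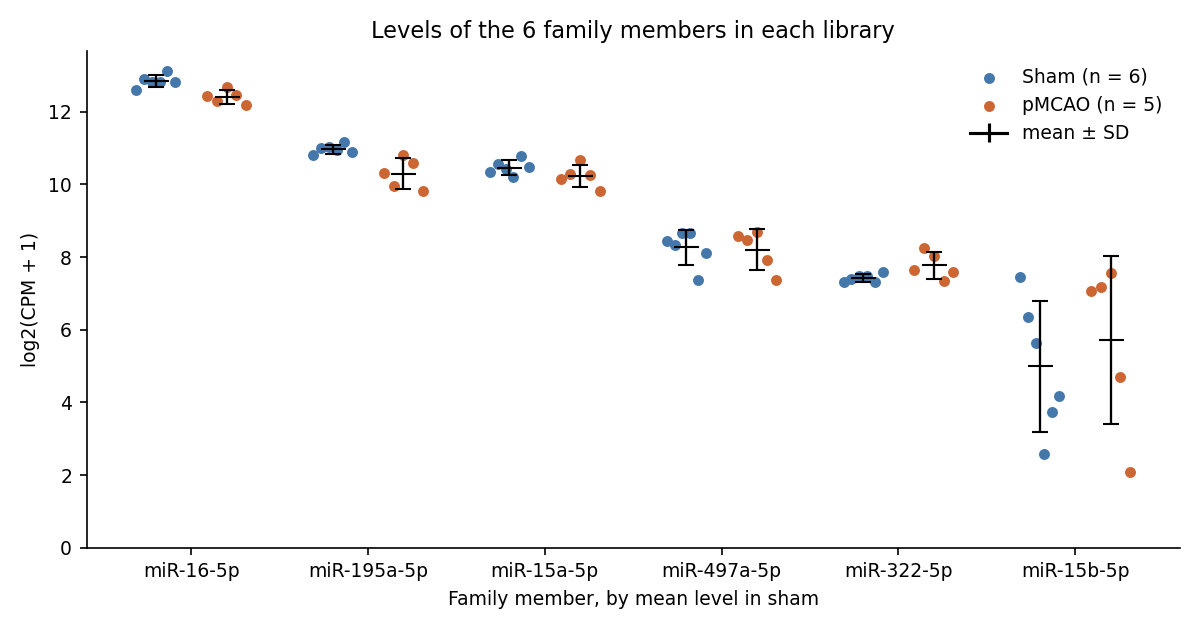
Levels of the 6 members as log2(CPM + 1) in each of 6 sham and 5 pMCAO libraries, ordered by mean level in sham. Points are libraries, black bars the mean and SD of a group. miR-16-5p and miR-195a-5p sit lower in most pMCAO libraries, every member's groups overlap, and the libraries of miR-15b-5p are the most scattered.

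The most abundant members, miR-16-5p and miR-195a-5p, were lower after pMCAO, and the other 4 members did not pass the test. Over all 479 miRNAs tested with edgeR's quasi-likelihood test (Benjamini-Hochberg adjusted p under 0.05), 7.1% were called in either direction and 2.71% were called lower. These are 34 miRNAs, 21 higher and 13 lower, a split that became 23 and 4 with upper-quartile scaling and 43 and 1 with scaling by total counts. DESeq2 called 45 of the 479, 29 higher and 16 lower. By edgeR's unadjusted p-value, place 90 of 479 was at 0.0282 and place 124 at 0.0594. At least 90 and fewer than 124 of the 479 were thus under an unadjusted 0.05. Of the 6 members, 2 were called and both were lower. The groups of none of the 6 members were fully apart, against 7.52% of all miRNAs tested. The median log2 fold change was -0.13 over the 6 members and 0.00147 over all miRNAs tested.

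miR-16-5p ran from 6164 CPM (Sham 1) to 8919 CPM (Sham 5) with a median of 7228 in sham. In pMCAO its values were 5494, 4968, 6537, 5674 and 4638 CPM in libraries 1 to 5. The groups overlapped only through Sham 1 and pMCAO 3, the lowest sham and the highest pMCAO library. The means were 7397 ± 900.2 CPM (SD, n = 6) and 5462 ± 729 CPM (SD, n = 5). The log2 fold change was -0.44 ± 0.116 (SE; 95% interval -0.69 to -0.19, edgeR adjusted p = 0.0412).

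miR-195a-5p ran from 1778 to 2291 CPM with a median of 2009 in sham. The pMCAO values were 1274, 984, 1801, 1527 and 906 CPM in libraries 1 to 5. Again the only contact was between Sham 1 (1778 CPM) and pMCAO 3 (1801 CPM), and the pMCAO libraries spread more widely than the sham libraries. The means were 2009 ± 173 CPM (SD, n = 6) and 1298 ± 374 CPM (SD, n = 5). The log2 fold change was -0.63 ± 0.166 (SE; 95% interval -0.99 to -0.27, edgeR adjusted p = 0.0396), the lowest of the 6 members.

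Both calls lie close to the threshold, at places 25 and 24 of 479 by p-value with 34 miRNAs called. Each was lost when any one of Sham 2, 3, 4, 5 and 6 or pMCAO 1, 2 and 5 was left out, and the call of miR-16-5p also without pMCAO 4, with edgeR adjusted p-values of up to 0.145 for miR-16-5p and 0.139 for miR-195a-5p. Both calls were also lost with upper-quartile scaling, scaling by total counts, at least 10 counts required in every library, and the replicate number as a block, where the adjusted p-values were 0.117 and 0.0681 for miR-16-5p and miR-195a-5p. The call of miR-16-5p was lost without a filter as well (edgeR adjusted p = 0.0542). DESeq2 called both (adjusted p = 0.0268 and 0.0106). Over the 11 fits without 1 library each the log2 fold changes stayed between -0.51 and -0.37 for miR-16-5p and between -0.78 and -0.51 for miR-195a-5p.

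miR-15a-5p, which shares the Dleu2 locus with Mir16-1, ran from 1171 to 1760 CPM in sham (median 1392) and measured 1124, 1254, 1622, 1220 and 902 CPM in pMCAO 1 to 5. Only pMCAO 1 and pMCAO 5 were below the lowest sham library. Its log2 fold change was -0.21 ± 0.149 (SE; 95% interval -0.53 to 0.11, edgeR adjusted p = 0.434), an interval that holds both no difference and the estimate of miR-16-5p. The estimate was -0.34 without pMCAO 3, -0.13 without Sham 5, -0.11 without pMCAO 5 and -0.04 with scaling by total counts.

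miR-497a-5p, from the hairpin next to Mir195a, ran from 165 to 407 CPM in sham (median 334) and measured 379, 356, 414, 241 and 163 CPM in pMCAO 1 to 5. The 2 groups covered nearly the same range. Its log2 fold change was -0.05 ± 0.254 (SE; 95% interval -0.60 to 0.50, edgeR adjusted p = 0.972), and its sign changed under other settings.

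miR-322-5p was the tightest member in sham, from 157 to 192 CPM with a median of 173, and measured 200.2, 304, 263, 160.1 and 193 CPM in pMCAO 1 to 5. All pMCAO libraries except pMCAO 4 were above the highest sham library, but pMCAO 5 (193 CPM) was nearly level with it (192 CPM). The means were 172 ± 13.1 CPM (SD, n = 6) and 224 ± 58.0 CPM (SD, n = 5). Its log2 fold change of 0.38 ± 0.153 (SE; 95% interval 0.05 to 0.71) did not pass the adjusted threshold (edgeR unadjusted p = 0.0273, adjusted p = 0.149). By p-value miR-322-5p was at place 88 of 479.

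**Figure D2:**
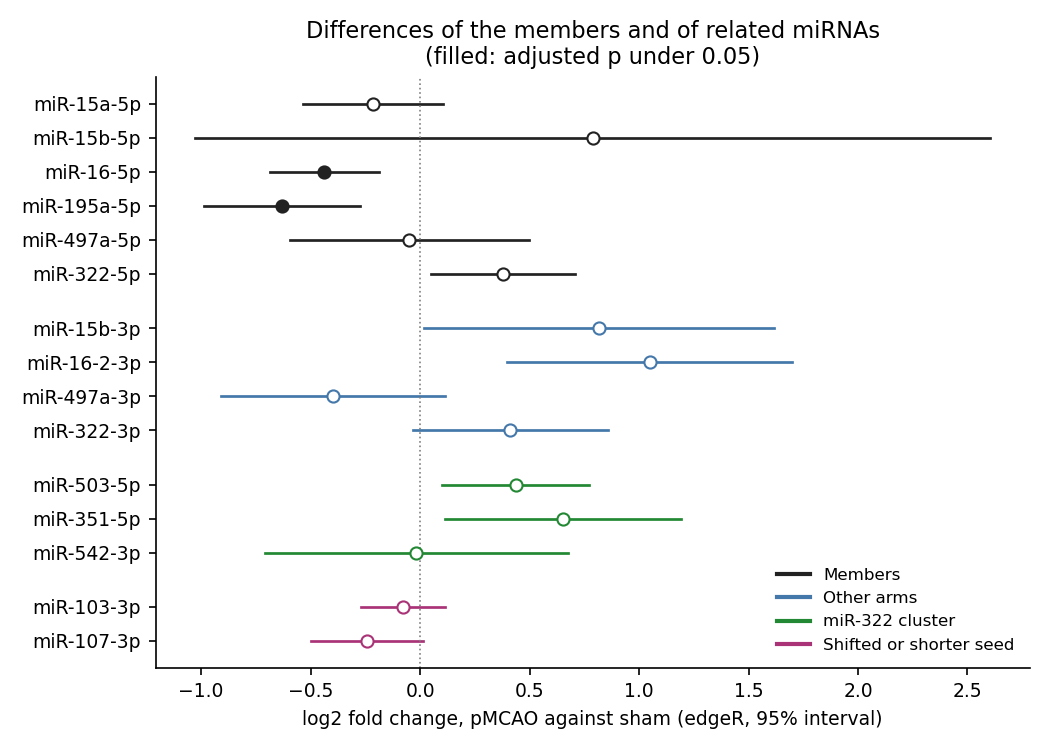
Log2 fold changes of pMCAO against sham (points) with 95% intervals (lines) from edgeR for the 6 members, the tested other arms of their hairpins, the tested miRNAs near miR-322 and the relatives of the seed. Filled points have an adjusted p under 0.05, which only miR-16-5p and miR-195a-5p reached. The interval of miR-15b-5p, from -1.03 to 2.60, is the widest.

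miR-15b-5p, from the Smc4 locus, was the member that varied most between libraries of a group. Its CPM was 173, 81.3, 48.5, 4.93, 12.4 and 17.2 in Sham 1 to 6 and 134, 144, 187, 25.0 and 3.24 in pMCAO 1 to 5, from 5 to 273 counts. In both groups the libraries numbered 1 to 3 were above all libraries with higher numbers, at 48.5 to 187 CPM against 3.24 to 25.0 CPM. The labels give no run, date or batch for the libraries, and a part of one in this split was not tested. Its SD within groups was 2.05 on the log2(CPM + 1) scale, rank 1 of the 479 miRNAs tested, whose median was 0.298. The log2 fold change was 0.79 ± 0.845 (SE, edgeR adjusted p = 0.666), with estimates from 0.40 without pMCAO 3 to 1.56 without Sham 1. These data do not fix the direction of miR-15b-5p.

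The other arm of the same hairpin did not follow this split. miR-15b-3p measured 13.9, 6.49, 6.84, 9.24, 2.91 and 5.93 CPM in Sham 1 to 6 and 10.1, 22.5, 8.004, 9.11 and 18.1 CPM in pMCAO 1 to 5. The ratio of miR-15b-5p to miR-15b-3p therefore ran from 0.533 (Sham 4) to 12.5 (Sham 2) in sham and from 0.179 (pMCAO 5) to 23.3 (pMCAO 3) in pMCAO. miR-16-5p, of which Mir16-2 in the same intron is a source, had an SD within groups of 0.181, rank 409 of 479. miR-15a-5p had 0.252, miR-322-5p 0.258, miR-195a-5p 0.293 and miR-497a-5p 0.519.

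**Figure D3:**
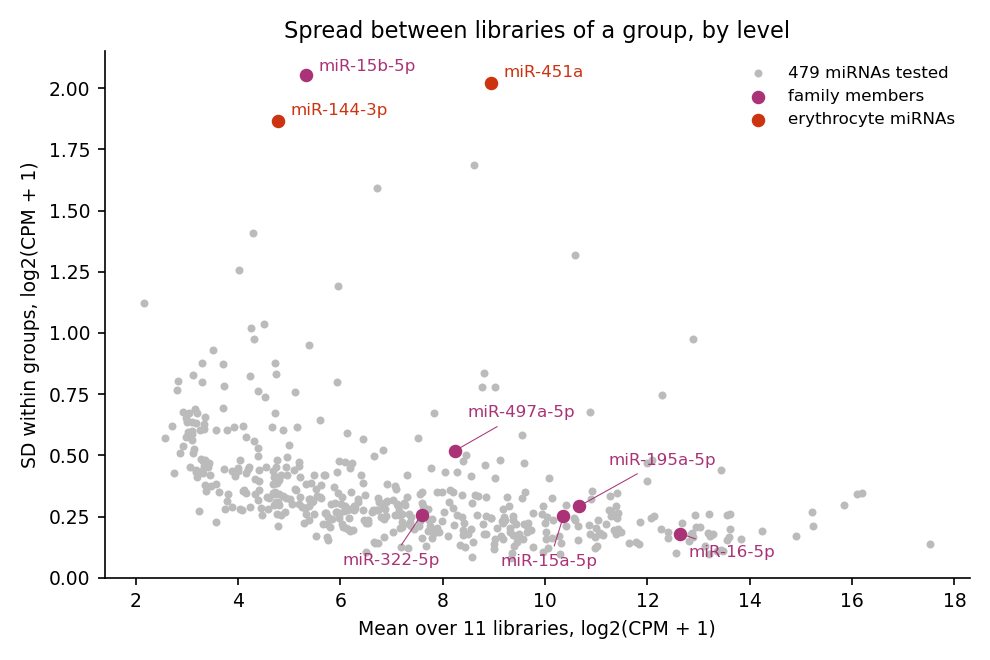
SD within groups against mean level, both on the log2(CPM + 1) scale, for the 479 miRNAs tested (grey), the 6 members (purple) and 2 red blood cell miRNAs (red). miR-15b-5p is at the top with 2.05, next to miR-451a with 2.02 and miR-144-3p with 1.86, and the other 5 members lie at 0.519 or lower.

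The miRNAs that followed miR-15b-5p most closely over the 11 libraries, by the SD of the log2 ratio, were miR-29c-3p (1.26) and miR-361-5p (1.38), which are still loose fits. miR-29c-3p targets collagens and other matrix genes. It was between 12108 and 14198 CPM in Sham 1 to 3 and between 3295 and 6943 CPM in Sham 4 to 6. In pMCAO it was 12362, 7764, 12203, 7884 and 1774 CPM, with pMCAO 5 the lowest of all libraries, as for miR-15b-5p. The nearest member was miR-497a-5p (1.72), which had its own lowest values in Sham 5 (165 CPM) and pMCAO 5 (163 CPM) but stood at 406 CPM in Sham 4, the lowest sham library of miR-15b-5p.

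**Figure D4:**
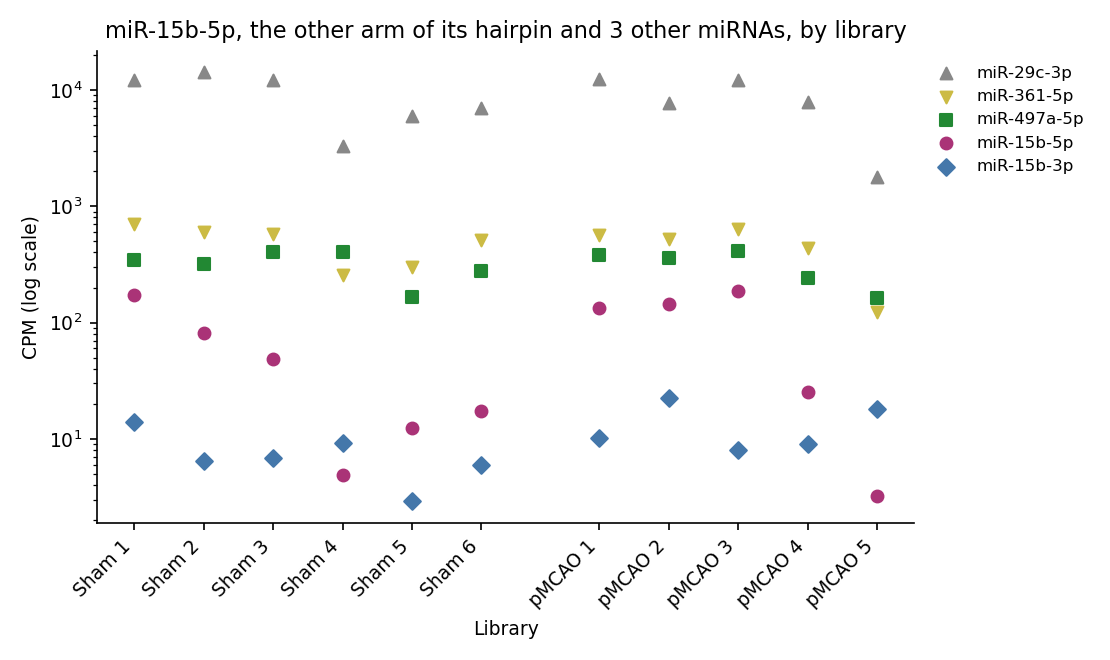
CPM on a log scale in each library for miR-15b-5p, the other arm of its hairpin, miR-497a-5p and the 2 miRNAs nearest to miR-15b-5p. miR-15b-5p is at 48.5 CPM or more in the libraries numbered 1 to 3 of both groups and at 25.0 CPM or less in the others, while miR-15b-3p stays between 2.91 and 22.5 CPM.

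The remaining members had closer partners. A partner picked for a steady ratio over both groups tends by construction to have a group difference near the member's, so the values of the partners are descriptions. miR-16-5p was nearest to miR-582-5p (SD of the log2 ratio 0.123 over 11 libraries), which was not called (log2 fold change -0.29 ± 0.117 SE, edgeR adjusted p = 0.148), and to miR-30d-5p (0.138), which was called lower (-0.39 ± 0.104 SE, edgeR adjusted p = 0.0412). miR-195a-5p was nearest to miR-181a-1-3p (0.177), the other arm of a miR-181 hairpin, which was called lower (log2 fold change -0.58 ± 0.128 SE, edgeR adjusted p = 0.0148), and to miR-873a-3p (0.191), which was not (-0.41 ± 0.201 SE, edgeR adjusted p = 0.229). miR-15a-5p was nearest to miR-9-3p (0.173), from the hairpin of a neural miRNA, then to miR-16-5p (0.178) and miR-148b-3p (0.187). miR-322-5p was nearest to miR-339-5p (0.162) and miR-93-5p (0.202), and miR-497a-5p to let-7b-3p (0.287) and miR-532-3p (0.288). Within the family, the nearest member of miR-195a-5p was miR-16-5p (0.199, place 3), whereas the nearest member of miR-322-5p came at place 178.

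The star strands, the arms less often kept from a hairpin, were mostly low. Of the 7 other arms, 4 passed the filter and 0 were called by edgeR, with 2 at an unadjusted p under 0.05 and 1 called by DESeq2. Of all 479 miRNAs tested, at least 90 were under that unadjusted value in edgeR, and DESeq2 called 45 of the 479. The arm called by DESeq2 was miR-16-2-3p, made only from Mir16-2, with 6 to 22 counts per library. It ran from 4.10 to 10.8 CPM in sham (median 6.27) and measured 17.997, 17.7, 17.6, 7.59 and 10.4 CPM in pMCAO 1 to 5. Its pMCAO values lay above all sham libraries in pMCAO 1, 2 and 3. Its log2 fold change was 1.05 ± 0.303 (SE; edgeR adjusted p = 0.0513), while DESeq2 gave an adjusted p of 0.0474. At these counts the 2 tools fall on either side of the threshold.

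miR-16-1-3p, made only from Mir16-1, had between 0 and 12 counts, with 2.47 to 6.34 CPM in sham and 0, 3.55, 7.20, 3.04 and 5.83 CPM in pMCAO 1 to 5, where the 0 allows up to 3.37 CPM. It was under the filter. The ratio of miR-16-5p to miR-16-2-3p ran from 572 (Sham 1) to 1742 (Sham 3) in sham and was 305, 280.1, 371, 748 and 448 in pMCAO 1 to 5. Only pMCAO 4 reached into the sham range. On the log2 scale its mean was 10.2 ± 0.544 in sham (SD, n = 6) and 8.65 ± 0.563 in pMCAO (SD, n = 5).

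miR-15b-3p (log2 fold change 0.82 ± 0.373 SE, edgeR adjusted p = 0.198), miR-322-3p (0.41 ± 0.208 SE, adjusted p = 0.242) and miR-497a-3p (-0.40 ± 0.238 SE, adjusted p = 0.356) did not pass the test. The estimate of miR-497a-3p was -0.64 without pMCAO 3 (edgeR adjusted p = 0.0885), -0.26 without pMCAO 5 and -0.22 with scaling by total counts. miR-322-5p and its other arm had estimates of the same sign, and the log2 ratio of the arms was 2.89 ± 0.295 in sham and 2.80 ± 0.472 in pMCAO (SD). miR-15a-3p (3 to 11 counts) and miR-195a-3p (0 to 6 counts) were under the filter.

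Of the 11 names from the hairpins near Mir322, 3 passed the filter and 0 were called by edgeR or DESeq2, with 2 at an unadjusted p under 0.05 in edgeR. At least 90 of all 479 miRNAs tested were under that value. miR-503-5p, which like the family targets cell-cycle genes, had means of 118 ± 18.9 CPM in sham and 160.0 ± 31.1 CPM in pMCAO (SD; log2 fold change 0.44 ± 0.156 SE, adjusted p = 0.111). miR-351-5p, the mouse relative of miR-125, had 30.1 ± 7.69 CPM and 47.8 ± 19.3 CPM (SD; 0.65 ± 0.250 SE, adjusted p = 0.132), and its estimate was 0.43 without pMCAO 2. miR-542-3p, at 6 to 24 counts, had a log2 fold change of -0.02 ± 0.322 (SE, adjusted p = 0.992). The log2 ratio of miR-322-5p to miR-503-5p was 0.55 ± 0.258 in sham and 0.47 ± 0.291 in pMCAO (SD), a difference within the spread of the libraries. The names of the miR-450 hairpins and the other arms of miR-503, miR-351 and miR-542 had 14 counts or fewer in every library.

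The relatives miR-103-3p and miR-107-3p were abundant, and neither was called. miR-103-3p had means of 11698 ± 831 CPM in sham and 11073 ± 905 CPM in pMCAO (SD; log2 fold change -0.08 ± 0.0898 SE, 95% interval -0.27 to 0.11, edgeR adjusted p = 0.672). miR-107-3p had 2056 ± 212 CPM and 1737 ± 253 CPM (SD; -0.24 ± 0.119 SE, edgeR adjusted p = 0.232), with an estimate of -0.14 without pMCAO 2 and of -0.08 with scaling by total counts. The mean of miR-103-3p alone was thus close to that of the whole 6-member family in sham.

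The family as a sum was 11375 ± 1126 CPM in sham (n = 6) and 8618 ± 1464 CPM in pMCAO (SD, n = 5). Its pMCAO values were 8605, 8010, 10824, 8846 and 6805 CPM, and only pMCAO 3 reached the sham range of 9922 to 13307 CPM. The difference of the means of log2 sums was -0.41, with an SD of 0.14 in sham and 0.243 in pMCAO. The family's share of all counts was 1.08 ± 0.118% in sham and 0.917 ± 0.132% in pMCAO (SD). miR-16-5p held 63.7 ± 2.91% of the family in pMCAO. miR-322-5p held 1.20 to 1.74% in sham and 1.81 to 3.79% in pMCAO, the one member whose shares did not overlap between the groups. A share also depends on the levels of the other members, and no background was computed for shares. In CPM the groups of miR-322-5p overlapped and it was not called (edgeR adjusted p = 0.149).

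Ratios between members within a library do not depend on how the libraries are scaled, and were computed for all 15 pairs after the values had been seen, with no test. In 3 of the 15 pairs the groups did not overlap, against 5.51% of the 113050 pairs of tested miRNAs without a 0 count. Pairs that share a member are not independent, and these 3 pairs are built from 4 members. The ratio of miR-16-5p to miR-322-5p ran from 37.7 to 55.9 in sham and was 27.4, 16.4, 24.9, 35.4 and 24.0 in pMCAO 1 to 5. The ratio of miR-195a-5p to miR-322-5p ran from 9.90 to 14.4 in sham and was 6.37, 3.24, 6.86, 9.54 and 4.70 in pMCAO. The ratio of miR-15a-5p to miR-195a-5p ran from 0.590 to 0.768 in sham and was 0.882, 1.28, 0.901, 0.799 and 0.995 in pMCAO. In these libraries the ratios to miR-322-5p were lower and the ratio to miR-195a-5p higher in pMCAO, and pMCAO 4 was nearest to sham in all 3.

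Within a cluster, the log2 ratio of miR-195a-5p to its neighbour miR-497a-5p was 2.70 ± 0.569 in sham and 2.10 ± 0.496 in pMCAO (SD), with overlapping groups. Their difference was -0.61, and -0.39 without Sham 5. The log2 ratio of miR-15a-5p to miR-16-5p was -2.38 ± 0.127 in sham and -2.17 ± 0.168 in pMCAO (SD), also overlapping. The log2 ratio of miR-16-5p to miR-195a-5p was steady in sham at 1.88 ± 0.0728 and wider in pMCAO at 2.11 ± 0.235 (SD).

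**Figure D5:**
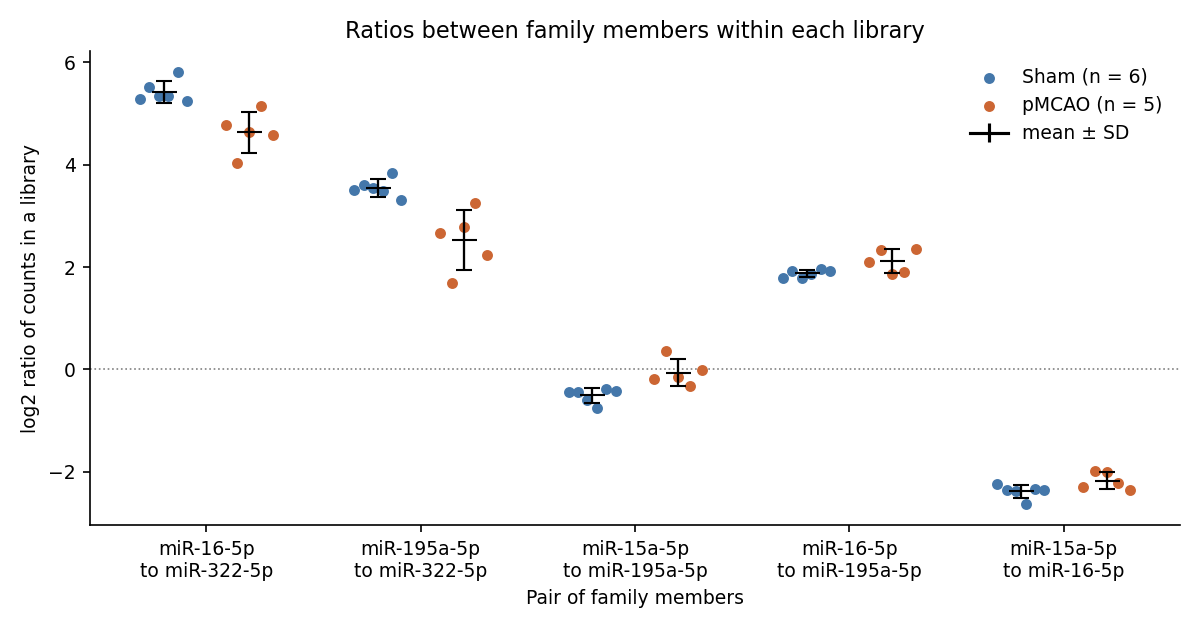
Log2 ratios of counts within each library for 5 pairs of members, with the mean and SD of 6 sham and 5 pMCAO libraries. The first 3 pairs do not overlap between the groups, and the ratio of miR-16-5p to miR-195a-5p (sham 1.88 ± 0.0728) and of miR-15a-5p to miR-16-5p (sham -2.38 ± 0.127) do.

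Some markers of other cells differed between the groups, and their part in the family's differences was not tested. Over all 479 miRNAs tested, edgeR called 34, and at least 90 had an unadjusted p under 0.05. Of 5 myeloid miRNAs (miR-223-3p, both arms of miR-142a, miR-155-5p and miR-146b-5p), 4 were called higher by edgeR and 5 had an unadjusted p under 0.05, and their sum was 461 to 894 CPM in sham and 941 to 4014 CPM in pMCAO. Of 6 neuronal miRNAs, 1 was called lower (miR-132-3p) and 5 had an unadjusted p under 0.05, with 4 estimates below 0 and 2 above. miR-132-3p and miR-124-3p (log2 fold change -0.32, edgeR adjusted p = 0.0523) did not overlap between the groups, against 7.52% of all miRNAs tested. In contrast, miR-129-5p (0.32, adjusted p = 0.132) and miR-138-5p (0.21, adjusted p = 0.431) had estimates above 0. Of 3 oligodendrocyte miRNAs, 1 was called lower (miR-338-3p), also the only one with an unadjusted p under 0.05, with sums of 4287 to 5244 CPM and 2529.7 to 4955 CPM. Of 6 mural cell and fibroblast miRNAs, 1 was called higher by edgeR (miR-214-3p) and 3 were called by DESeq2, which called 45 of all 479. In edgeR 3 had an unadjusted p under 0.05, and the sums were 6874 to 11553 CPM and 6388 to 8793 CPM. The 2 endothelial miRNAs, the arms of miR-126a, were called by neither tool, with 0 at an unadjusted p under 0.05, and summed to 9192 to 13016 CPM and 9518 to 13653 CPM. None of the markers of these 5 lists was at 0 in any library.

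Red blood cell miRNAs differed widely between libraries. Their 5 names summed to 49.2 to 272 CPM in Sham 2 to 6 but to 5375 CPM in Sham 1, and to 1980, 1075, 4735, 639.7 and 1514 CPM in pMCAO 1 to 5. Of the 2 that passed the filter, miR-451a and miR-144-3p, 0 were called by edgeR or DESeq2, with 0 at an unadjusted p under 0.05, and 3 of the 5 were at 0 in a library. Sham 1 and pMCAO 3 had the highest sums. For miR-16-5p and miR-195a-5p they were also the libraries that met between the groups. There they lay in opposite directions, Sham 1 as the lowest sham library and pMCAO 3 as the highest pMCAO library. Both held the highest miR-15b-5p of their group. Without Sham 1 the log2 fold change of miR-16-5p was -0.47 (edgeR adjusted p = 0.0293) and that of miR-195a-5p -0.65 (adjusted p = 0.0415). Without pMCAO 3 they were -0.51 (adjusted p = 0.0168) and -0.78 (adjusted p = 0.0108). Sham 1 and pMCAO 3 each lay nearest to the other group, so leaving either out widens the difference whatever its red blood cell content. Both calls were lost when most of the other libraries were left out singly, as given above. The red blood cell sum of pMCAO 5, which had the lowest miR-15b-5p (3.24 CPM), was 1514 CPM. A part of red blood cell RNA in these values was not tested.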

How the data were processed

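Small RNA libraries of 6 sham and 5 pMCAO mice, made with an Ion Total RNA-Seq kit, were analysed. The authors deposited raw read counts per mature miRNA name, after a quality check with FastQC, a read length filter, alignment to mm10 with Bowtie and counting with HTSeq per the labels and the study's methods. The versions and settings of Bowtie and HTSeq are not given in the sources used here. Reads outside miRNAs are not part of the tables, so the totals count miRNA reads, and reads carry no molecular identifiers, so floors of 3 counts cover counting error only, and the 95% intervals of fold changes rest on the spread between libraries.

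The tests used edgeR 4.0.16 (R 4.3.3). Its filterByExpr (minimum count 10, minimum total 15) kept 479 of 1907 names. TMM factors ran from 0.865 to 1.04 in sham and from 1.03 to 1.14 in pMCAO. The functions glmQLFit and glmQLFTest compared pMCAO with sham over all 479 names without covariates, with Benjamini-Hochberg adjustment at 0.05. Standard errors come from the log2 fold change and its F statistic. DESeq2 1.42.0 was an alternative. Levels are TMM-scaled CPM, with 1 added before log2. Sums, shares and ratios were not tested. The script was tested on simulated data. Replicates are separate mice by the study's design text, and no 2 libraries of a group agreed within sampling noise (chi-square per degree of freedom at least 17.99).

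Named are the 6 members, the other arms of their hairpins, miRNAs near Mir322, relatives of the seed, names with the same seed, the 2 tested miRNAs nearest to each member by the SD of the log2 ratio, and marker lists written from general knowledge. Members and lists were chosen with earlier results of these data known. Sequences are from RefSeq (GRCm38.p6) and positions from GENCODE vM21. Alternatives were 3 other scalings, DESeq2, a robust fit, 2 other filters, a replicate block, 0.5 added to counts before ratios, and leaving out each library.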

Additional observations from a re-analysis of the deposited data

Results flagged for a closer look

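Of 50 groups of 5 or 6 values examined for a value far from the rest (Dixon's criterion at the 95% level), 3 had one, where chance gives about 2.5. For miR-351-5p, the log2(CPM + 1) of 5.52 in Sham 4 stood above the other sham libraries, of which the next was at 4.96. The log2 ratio of miR-195a-5p to miR-497a-5p was 3.79 in Sham 5, with the next sham library at 2.79, where miR-497a-5p had its lowest sham level. The log2 ratio of miR-15a-5p to miR-16-5p was -2.63 in Sham 4, with the next sham library at -2.38.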

How the results depend on the processing

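The 34 calls became 18 (15 higher, 3 lower) with at least 10 counts required in every library and 19 (17 higher, 2 lower) with the replicate block, and between 16 and 36 without 1 library each. They fell to 21 or fewer without Sham 2, 3, 4 or 6 or pMCAO 2 or 5. The cause was not tested. Of the 2 called members, 0 were left with upper-quartile scaling, total counts alone, at least 10 counts in every library or the replicate block, 1 (miR-195a-5p) without a filter, and between 0 and 2 without 1 library each. Both were kept with RLE size factors, DESeq2, the robust fit and without Sham 1 or pMCAO 3, and miR-195a-5p also without pMCAO 4. Outside the leave-one-out fits, adjusted p-values ran from 0.0268 to 0.149 for miR-16-5p and from 0.0101 to 0.0822 for miR-195a-5p, and neither changed sign in any of the 19 alternatives. Scaling by total counts moved the median of all miRNAs to 0.18 (log2). Relative to that, miR-16-5p was at -0.44 and miR-195a-5p at -0.64. Under that scaling the estimates of miR-497a-5p (0.13), miR-542-3p (0.16) and miR-103-3p (0.089) changed sign, and miR-503-5p passed the threshold (adjusted p = 0.0391). miR-16-2-3p passed it with total counts (0.0269), DESeq2 (0.0474), without Sham 1 (0.0258) and without pMCAO 4 (0.0245). With 1 library left out in turn, the log2 fold change ran from -0.18 to 0.13 for miR-497a-5p and from -0.15 to 0.18 for miR-542-3p. The group difference of the log2 ratio ran from -0.16 to 0.037 for miR-322-5p to miR-503-5p, from -0.79 to 0.96 for miR-15b-5p to miR-15b-3p and from -0.23 to 0.030 for miR-322-5p to miR-322-3p. It ran from 0.65 to 2.09 for miR-15b-5p to miR-16-5p, from -0.75 to -0.39 for miR-195a-5p to miR-497a-5p, from -0.52 to -0.17 for miR-15a-5p to miR-15a-3p and from 0.23 to 0.44 for miR-497a-5p to miR-497a-3p. The family sum differed by -0.50 to -0.32 without 1 library each and by -0.42 to -0.24 with other scalings. Replicate numbers are shared by the groups, and no pairing by single numbers was seen. Libraries of one number deviated together with correlations of -0.08 to 0.23, and none correlated best with its own number. Sham 1, 2 and 3 correlated best with pMCAO 3, 3 and 1, and Sham 4 and 5 with pMCAO 5 and 4. These partners keep to the split of libraries 1 to 3 from the others seen for miR-15b-5p. A batch shared by libraries 1 to 3 was not tested. The replicate block leaves out Sham 6. Counts of 28 or fewer limit the precision of miR-15b-3p and miR-16-2-3p.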
